A study of Mus musculus with 6 samples.

Results

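The interferon regulatory factors (IRFs) of mice were followed across 6 heart ventricles on expression arrays. Their probe sets were taken by gene symbol from the platform's annotation, as those of Irf1, Irf2, Irf3, Irf4, Irf5, Irf7, Irf8 and Irf9. These are 8 of the 18193 genes that had a probe set of their own on the array, and 14 of its 45101 probe sets. The 2 groups were 3 mice with wild-type Trex1 (Trex1 WT) and 3 Trex1 knockouts (Trex1 KO). All 6 mice, the controls included, also lacked Rag2, a gene needed to assemble antigen receptors and so to make lymphocytes. Each control had a knockout littermate, which gave the pairs A, B and C, and each mouse gave 1 array of total RNA from ventricle tissue. The sources used here give neither the age of the animals nor the extent of the Trex1 deletion. Trex1 is an exonuclease that degrades DNA in the cytosol, and the design asks how heart transcripts respond to its loss.

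IRFs share a DNA-binding domain at the amino terminus that recognises the interferon-stimulated response element (ISRE), a pair of GAAA repeats in the control regions of interferon-induced genes. Irf3 and Irf7 are phosphorylated downstream of sensors of foreign or misplaced nucleic acid and switch on type I interferon genes. Interferon made in this way acts on its receptor, and Irf9 joins Stat2 in the complex ISGF3, which switches on interferon-stimulated genes, Irf7 among them. Irf1 is an activator induced by interferon gamma, and Irf2 competes with it for the same element. Irf4, Irf5 and Irf8 act mainly in lymphocytes, macrophages and dendritic cells.

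The stretches upstream of the transcription start are shown for 5 members. They set the gene that rose, Irf7, beside Irf9 of ISGF3 and beside the members whose windows held a match. The stretches are RefSeq sequences of the assembly GRCm38.p6, 250 bases each, written 5′ to 3′ on the gene's strand. Capitals mark a match to the ISRE core GAAANNGAAA or to the gamma-activated site (GAS) TTCNNNGAA, an element found in genes that interferon gamma induces. Both were searched on both strands, and GAS reads alike on either. The Irf7 stretch lies at chr7:141266425-141266674 on the minus strand, Irf9 at chr14:55603735-55603984, Irf1 at chr11:53769764-53770013, Irf2 at chr8:46739495-46739744 and Irf8 at chr8:120736108-120736357, all 4 on the plus strand.
Irf7: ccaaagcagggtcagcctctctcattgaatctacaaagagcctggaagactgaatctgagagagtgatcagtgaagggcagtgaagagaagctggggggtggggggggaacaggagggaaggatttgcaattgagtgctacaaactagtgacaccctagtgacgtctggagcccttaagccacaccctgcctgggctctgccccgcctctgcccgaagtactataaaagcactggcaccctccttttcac
Irf9: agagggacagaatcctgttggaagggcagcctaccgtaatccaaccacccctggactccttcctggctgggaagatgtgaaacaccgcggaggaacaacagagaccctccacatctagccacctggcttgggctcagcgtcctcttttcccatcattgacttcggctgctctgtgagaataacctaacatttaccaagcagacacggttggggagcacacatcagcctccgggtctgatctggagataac
Irf1: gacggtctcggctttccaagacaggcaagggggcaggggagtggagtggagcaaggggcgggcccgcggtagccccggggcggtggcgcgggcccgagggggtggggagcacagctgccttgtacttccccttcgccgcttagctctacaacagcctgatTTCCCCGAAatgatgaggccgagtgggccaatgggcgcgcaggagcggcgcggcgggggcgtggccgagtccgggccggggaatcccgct
Irf2: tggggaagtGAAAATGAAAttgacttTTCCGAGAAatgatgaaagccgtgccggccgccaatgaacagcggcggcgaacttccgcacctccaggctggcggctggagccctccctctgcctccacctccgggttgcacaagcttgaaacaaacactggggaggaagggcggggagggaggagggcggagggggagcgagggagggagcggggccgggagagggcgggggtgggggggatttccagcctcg
Irf8: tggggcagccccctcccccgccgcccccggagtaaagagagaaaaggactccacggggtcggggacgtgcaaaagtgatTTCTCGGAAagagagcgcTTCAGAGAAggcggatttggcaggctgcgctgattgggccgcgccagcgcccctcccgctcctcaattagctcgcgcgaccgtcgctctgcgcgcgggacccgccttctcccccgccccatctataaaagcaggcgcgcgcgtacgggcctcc

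The search covered 300 bases per start site (250 before and 50 after it) in 11 entries for the 8 genes. The ISRE core was found in 1 of the 11, that of Irf2, 241 bases before the start site. Over all 32851 promoters of the table, 3.44% held it. The GAS letters were found in 3 of the 11, at 90 bases before the start site of Irf1, 224 before that of Irf2, and 171 and 153 before that of Irf8, against 8.3% of all promoters. The ISRE and GAS matches of Irf2 did not overlap. The windows of Irf3, Irf4, Irf5, Irf7 and Irf9, and the second entries of Irf1, Irf8 and Irf9, held neither, which says only that these letters are not in those windows.

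The Trex1 probe set, which the annotation assigns to Atrip and Trex1 together, gave signals of 340 to 887 in Trex1 WT and 9.45 to 34.2 in Trex1 KO. Signals are the authors' MAS5 values on a linear scale. The 27 bacterial control probe sets, which match no mouse transcript, reached 69.8 at most. The Actb 3' to 5' ratio, a measure of RNA integrity, was 1.80 to 2.29 in Trex1 WT and 1.60 to 1.68 in Trex1 KO, without overlap, and was closest within pair C (1.80 and 1.68). The 18S signal was 924 to 13708 in Trex1 WT and 798 to 2834 in Trex1 KO. Markers of ventricular cardiomyocytes were bright on every array, with a summed signal of 183960 to 229020 over 5 genes in Trex1 WT and 196070 to 219980 in Trex1 KO.

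A single IRF gene, Irf7, passed the test. Differences are Trex1 KO minus Trex1 WT on the log2(signal + 16) scale, where 16 was added to damp noise in dim values. They were tested with limma over 27022 probe sets, with Benjamini-Hochberg adjustment and a threshold of 0.05. Of the 14 IRF probe sets, 13 were bright enough to test, and every one of the 8 genes had at least 1 among them. Among these 13, 1 was higher in Trex1 KO, where 0.218% of all tested probe sets were, and 0 were lower, where 0.0259% were. With littermate pairs as a block in limma the counts were again 1 and 0, against 0.389% and 0.0592% of all. At an unadjusted p under 0.05 in the unblocked limma fit, Irf7 and Irf9 were higher, as were 3.47% of all tested probe sets, and none was lower, against 1.97% of all. With the block the probe set of Irf1 and 1 of Irf5 were lower as well, where 5.03% of all tested probe sets were higher and 3.23% lower at that threshold. By its brightest probe set per gene, the median IRF difference was -0.07, and that of all 12811 tested genes was -0.02.

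**Figure D1:**
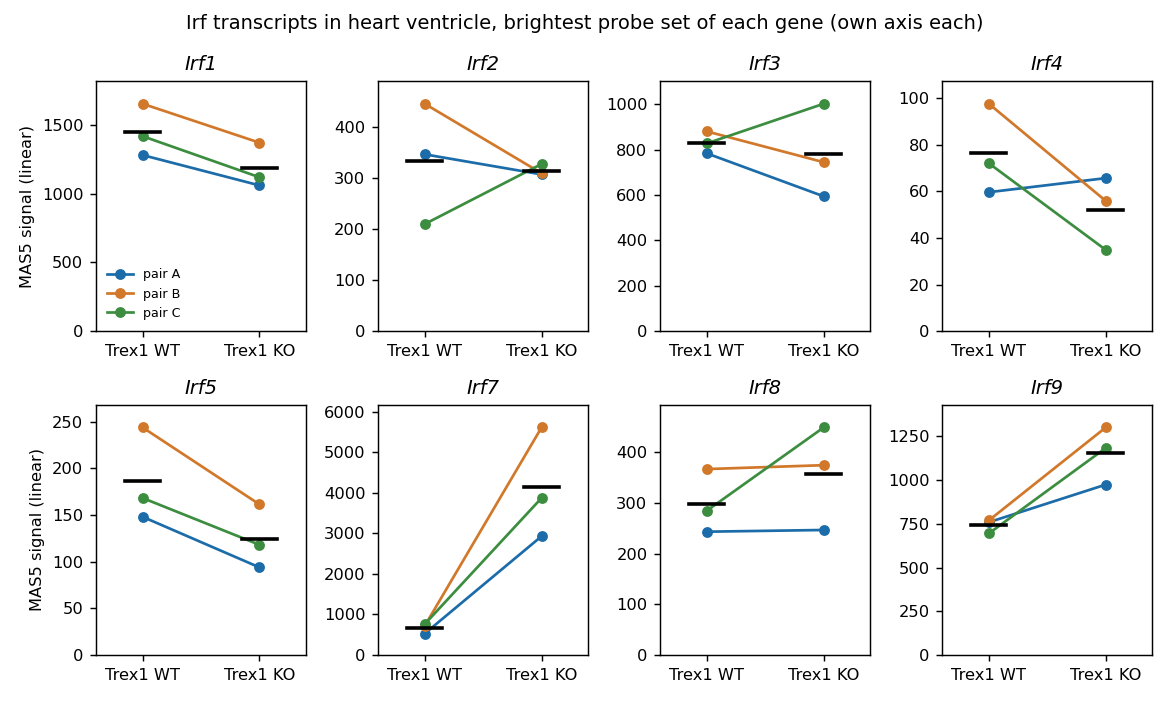
MAS5 signal (linear, each gene on its own axis from 0) of the brightest probe set of each IRF gene in the 6 hearts. Lines join littermates of pair A, B or C and black bars are group means (n = 3). Irf7 lay between 527 and 760 in Trex1 WT and between 2930 and 5615 in Trex1 KO, whereas the groups of Irf1, Irf2, Irf3, Irf4, Irf5 and Irf8 overlapped.

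Irf7, the factor that drives interferon alpha genes, was several times higher in each knockout heart than in its littermate. The probe set 1417244_a_at gave signals of 527, 716 and 760 in the controls of pairs A, B and C, while their knockout littermates gave 2930, 5615 and 3874. The dimmest knockout thus lay far above the brightest control. The ratio of the raw signals was 5.56 in pair A, 7.84 in pair B and 5.10 in pair C. The mean difference was 2.57 on the log2 scale (SE 0.22, 95% interval 2.08 to 3.06, limma adjusted p = 0.000728), a fold of 5.94. Among the tested genes, Irf7 ranked 10 of 12811 by difference. Its mean signal in Trex1 KO was 4140 ± 1362 and in Trex1 WT 667 ± 124 (SD, n = 3). The call held without each single array (differences of 2.33 to 2.79, limma adjusted p up to 0.00895) and without each littermate pair (2.38 to 2.69, limma adjusted p up to 0.0281). Once the Actb ratio entered as a covariate, the difference was 2.29 and did not pass (limma adjusted p = 0.164). By pair, Irf7 differed by 2.44 in A, 2.94 in B and 2.33 in C. The Actb ratio and the 18S signal were closest between littermates in pair C, which had the smallest difference. That ratio did not overlap between the groups, and the part of RNA integrity in the Irf7 difference was not tested.

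Irf9, the DNA-binding subunit of ISGF3, was moderately higher in all 3 pairs without passing the test. On 1421322_a_at the controls, taken from pair A to pair C, gave 759, 770 and 695, whereas the knockouts gave 974, 1301 and 1184. The groups did not overlap, and the 3 controls lay close together (741 ± 40.4, SD, n = 3) while the knockouts were spread more widely (1153 ± 166). Pair A, with a raw ratio of 1.28, stood below pairs B and C, with 1.69 and 1.70. The log2 difference was 0.62 (SE 0.14, 95% interval 0.32 to 0.92), a fold of 1.53. Its unadjusted limma p was 0.00106, rank 129 of 27022 probe sets, and its adjusted p was 0.222, or 0.0988 when littermate pairs formed a block. Over its alternatives the limma adjusted p ran from 0.0988 to 0.831.

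Irf7 and Irf9 were the 2 tested IRF probe sets whose 3 knockouts all lay above the 3 controls, and 5.57% of all tested probe sets did so. The opposite order, seen for 4.99% of all, occurred at 1 IRF probe set, the dimmer one of Irf5. Higher in all 3 pairs were 3 of the 13 IRF probe sets, and 14.2% of all tested probe sets. The 3 were those of Irf7 and Irf9 and the brighter one of Irf8. Within arrays, the log2 signal of Irf7 less that of Irf9 was 1.95 higher in Trex1 KO than in Trex1 WT. For the other 6 genes this excess of Irf7 lay between 2.34 (Irf8) and 3.10 (Irf5). In each of the 7 comparisons the lowest knockout array lay above the highest control. The two-sided exact permutation p was 0.1, the smallest possible with 3 arrays a group, and the permutation disregarded littermate pairs. Irf7 is the member with the largest rise and its values enter all 7 comparisons. This order and p therefore add no support of their own.

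**Figure D2:**
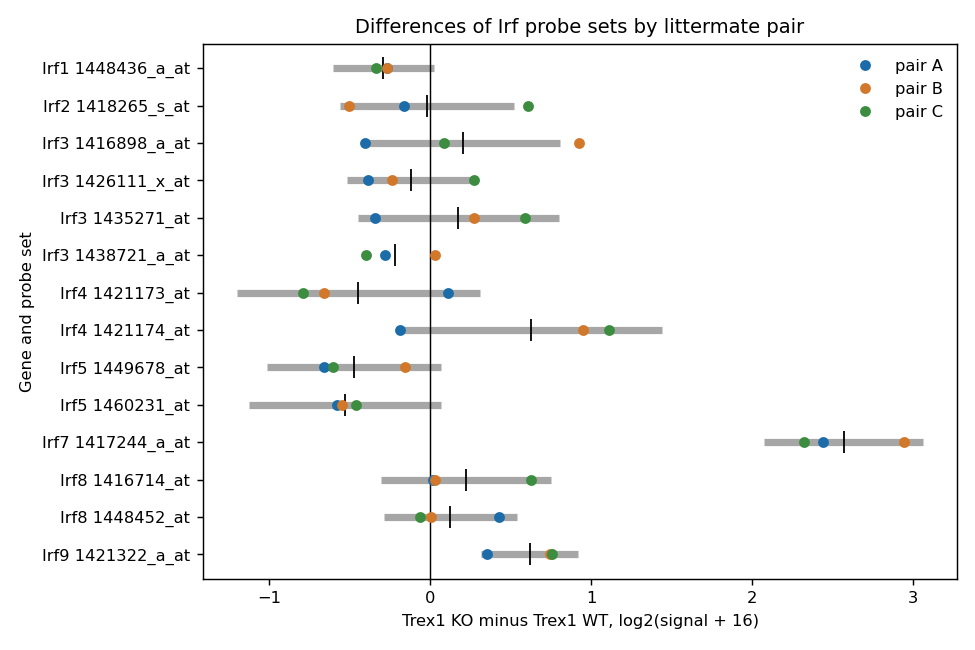
Trex1 KO minus Trex1 WT on the log2(signal + 16) scale for the 14 IRF probe sets. Dots are littermate pairs A, B and C, black ticks the mean difference and grey bars its 95% interval from limma, drawn for the 13 tested probe sets. The 3 pairs of Irf7 lie between 2.33 and 2.94, and Irf9 is the other probe set whose interval lies above 0.

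Irf3, the constitutively made partner of Irf7 in the induction of interferon beta, showed no shared direction across its 4 probe sets. The brightest, 1426111_x_at, gave control signals of 784, 881 and 828 beside knockout signals of 595, 745 and 1002, littermates in the same order. The knockouts lay on both sides of the controls, with a log2 difference of -0.12 (95% interval -0.52 to 0.28, limma adjusted p = 0.971). The probe sets 1416898_a_at and 1435271_at gave differences of 0.20 and 0.17 (limma adjusted p = 0.970 and 0.972), each lower in pair A and higher in pairs B and C. The last, 1438721_a_at, with signals of 31.4 to 63.6 within the range of the bacterial controls, was too dim to test. Over the 6 arrays the 4 probe sets correlated with each other at Pearson's r between -0.40 and 0.54, and so did not follow one common pattern. The brightest carries the suffix x, which on this platform marks probes that can match other transcripts.

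Irf1, the activator that interferon gamma induces, was slightly lower in each knockout than in its littermate. Its probe set 1448436_a_at had signals of 1281 against 1061 in pair A, 1654 against 1371 in pair B and 1418 against 1120 in pair C, controls named first. The groups overlapped, because the knockout of pair B lay above the control of pair A. Within pairs the differences were close to each other, at -0.27, -0.27 and -0.34 on the log2 scale. The mean of -0.29 (SE 0.14, 95% interval -0.60 to 0.02) missed the threshold (limma adjusted p = 0.939, or 0.444 with the block).

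Irf2, the competitor of Irf1, had nearly the same mean in both groups. On 1418265_s_at the controls gave 347 (pair A), 446 (pair B) and 210 (pair C), where the knockouts gave 307, 310 and 328. All 3 knockouts lay inside the range of the controls, whose SD was 118 against 11.2 in the knockouts (n = 3). The log2 difference was -0.02 (SE 0.24, 95% interval -0.56 to 0.52, limma adjusted p = 0.997), made up of -0.17 (pair A), -0.50 (pair B) and 0.61 (pair C). With that covariate, the Actb ratio, it was 0.89 (limma adjusted p = 0.641).

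Irf5, which acts in macrophages downstream of Toll-like receptors, was lower in all 3 pairs on both of its probe sets without passing the test. The brighter, 1460231_at, gave 148, 244 and 168 in the controls of pairs A, B and C, while the knockouts gave 93.7, 161 and 118. The dimmer, 1449678_at, gave 152, 168 and 195 in the controls and 90.1, 149 and 123 in the knockouts, pairs in the same order. On the dimmer the groups did not overlap, and on the brighter the knockout of pair B lay above the control of pair A. The log2 differences were -0.53 (95% interval -1.13 to 0.07, limma adjusted p = 0.953) and -0.47 (95% interval -1.01 to 0.07, limma adjusted p = 0.954). With the block the limma adjusted p-values were 0.557 and 0.649. The 2 probe sets followed each other over the 6 arrays (Pearson's r = 0.83). Lower in all 3 pairs were 3 of the 13 IRF probe sets, those of Irf5 and Irf1, and 15.3% of all tested probe sets. In tissue samples of this kind, fewer cells of a type and less RNA per cell cannot be told apart.

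Irf8, which directs the development of monocytes and dendritic cells, differed little. On the brighter of its probe sets, 1416714_at, control signals of 243, 367 and 285 stood beside 247, 375 and 449 in the knockout littermates. Littermates of pairs A and B had almost equal signals, while those of pair C were 0.63 apart on the log2 scale. The mean difference was 0.23 (95% interval -0.30 to 0.75, limma adjusted p = 0.960). On the other, 1448452_at, pair A showed the largest difference (0.43) and pair C was at -0.06, and the mean was 0.12 (95% interval -0.29 to 0.54, limma adjusted p = 0.971). Both probe sets were designed on the same transcript and correlated at Pearson's r = 0.26 over the 6 arrays.

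Irf4, a factor of lymphocytes and of macrophage polarisation, lay near background. The brighter probe set, 1421173_at, gave 59.6, 97.6 and 72.0 in the controls of pairs A, B and C, while the knockouts gave 65.7, 55.9 and 34.9. The dimmer, 1421174_at, gave 52.7, 39.3 and 33.6 in the controls and 44.4, 91.0 and 91.1 in the knockouts. Most of these signals lay below the brightest bacterial control, 69.8. The log2 differences were -0.45 and 0.63 (limma adjusted p = 0.955 for each), in opposite directions, and the 2 probe sets ran against each other over the 6 arrays (Pearson's r = -0.80). A direction for Irf4 cannot be read from these values.

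Blood cell markers are given here because Irf4, Irf5 and Irf8 are made mainly by such cells. Of 11 markers of monocytes and macrophages 0 passed in limma, with a median log2 difference of 0.25, 8 above 0 and 3 below. Their summed signal was 12029 to 19155 in Trex1 WT and 14594 to 19472 in Trex1 KO. Fcgr1, a high-affinity receptor for antibodies and the marker with the smallest p in that list, had a difference of 0.73 (limma adjusted p = 0.684). Of 7 dendritic cell markers 5 were tested and 0 passed, with a median of -0.13 and summed signals of 683 to 910 and 615 to 821. The plasmacytoid dendritic cell marker Siglech had mean signals of 28.5 and 25.6, within the range of the bacterial controls. Of 8 markers of T and B lymphocytes 2 were bright enough to test and 0 passed, and summed signals were 643 to 1012 and 582 to 782. The T cell marker Cd3e had mean signals of 16.3 in both groups. Ighm, the brightest marker of that list and the one with the smallest p, gave 357 to 838 in Trex1 WT and 301 to 463 in Trex1 KO. Its difference was -0.34 (limma adjusted p = 0.956). Of 5 natural killer cell markers 0 passed, with a median of 0.68 and summed signals of 581 to 830 in Trex1 WT and 704 to 2187 in Trex1 KO. Of 4 endothelial markers 0 passed, with a median of -0.26 and summed signals of 7039 to 9940 and 6272 to 7795. At an unadjusted p under 0.05 in limma, 1 macrophage and 1 natural killer cell marker were higher and 1 endothelial marker was lower, and 0 of the other 2 lists differed, where 3.03% of all tested genes were higher and 2.26% lower. The part of cell composition in the IRF differences was not tested.

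**Figure D3:**
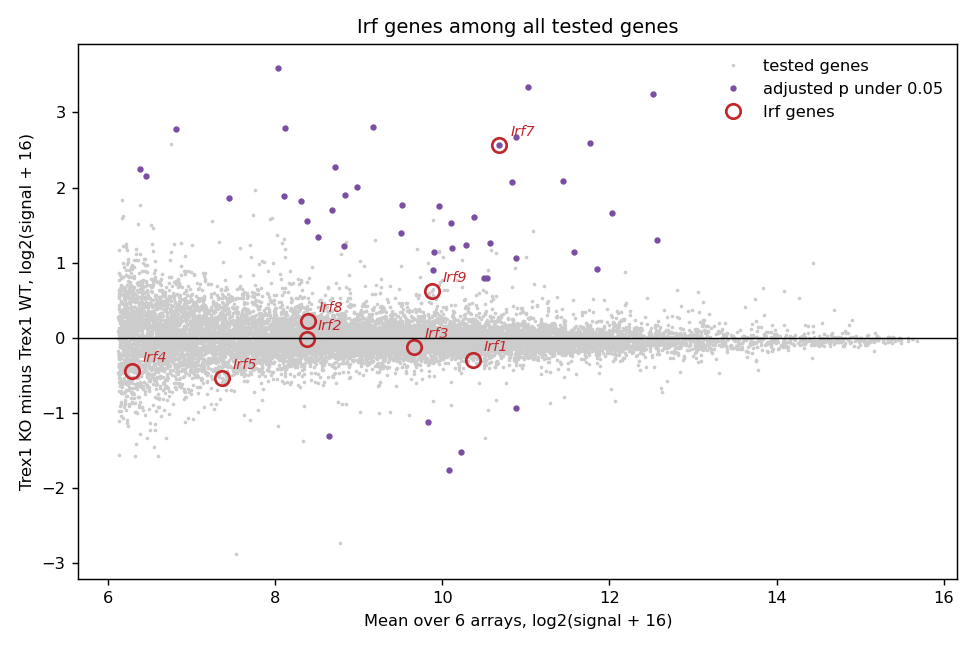
Difference (Trex1 KO minus Trex1 WT) against mean over the 6 arrays, both on the log2(signal + 16) scale, for 12811 tested genes by their brightest probe set. Purple points passed limma at an adjusted p under 0.05 and red rings mark the 8 IRF genes. Irf7 lies at 2.57 among the purple points, and the other 7 rings lie between -0.53 (Irf5) and 0.62 (Irf9).

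The genes whose levels ran most like those of Irf7 over the 6 arrays were Oasl2, Oas1a, Ddx58, Ifit3 and Rnf213. Pearson's r with Irf7 on the log2 scale was 0.996, 0.994, 0.993, 0.992 and 0.992, and 66 genes reached 0.95. These arrays fall into the 2 genotypes, so any gene with a large difference scores high, and the values are a description over 6 arrays. Oasl2, a relative of the oligoadenylate synthases, gave 419, 599 and 581 in the controls of pairs A, B and C, while the knockouts gave 1552, 2148 and 1784. As with Irf7, the control of pair A was the dimmest of its group and the knockout of pair B the brightest. All 5 genes passed the test, with folds from 2.09 (Rnf213) to 6.06 (Ifit3) and limma adjusted p up to 0.0242. Irf9 correlated with Irf7 at 0.96, and the brightest probe sets of Irf1 and Irf5 at -0.52 each.

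Most genes that act before the IRFs did not pass the test. Of 15 genes of upstream activation (sensors, adaptors and kinases), 14 were tested, 2 rose and 0 fell in limma, where 0.312% and 0.039% of all tested genes did. The median difference was 0.02. Those that rose were the RNA sensors Ifih1, from 636 ± 73.9 to 1872 ± 235 (difference 1.53, limma adjusted p = 0.000955), and Ddx58, from 628 ± 29.7 to 1414 ± 180 (1.14, limma adjusted p = 0.00392). The count was 1 without the littermates of pair A, 1 without those of pair C and 0 once the Actb ratio entered as a covariate. Tbk1, the kinase that phosphorylates Irf3 and Irf7, named after its values were seen, had signals of 1102 ± 146 and 1069 ± 44.6 (difference -0.04, limma adjusted p = 0.989). Sting1, the adaptor of cytosolic DNA sensing, likewise named afterwards, had 181 ± 52.2 and 304 ± 43.7 (0.73, limma adjusted p = 0.690). At an unadjusted p under 0.05 in limma, 4 of the 14 tested genes were higher, Sting1 among them, and 0 were lower. Of all tested genes 3.03% were higher and 2.26% lower at that threshold.

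Of the 10 interferon genes with a probe set, all of them type I genes but Ifng, which encodes interferon gamma, 8 lay below the filter and 0 of the other 2 passed. Ifnz, the one with the smaller p, had a difference of 0.02 (limma adjusted p = 0.999) at mean signals of 58.6 and 59.0. Both means lay under the brightest bacterial control, and the 95% interval of the difference was -0.89 to 0.92. Ifnb1, the interferon beta gene, was the other tested gene and is named after its values were seen. It gave 63.7, 62.4 and 101 in the controls of pairs A, B and C, while the knockouts gave 78.0, 61.4 and 85.2. The groups overlapped, with a difference of 0.0039 (95% interval -0.68 to 0.68, limma adjusted p = 0.99995). At an unadjusted p under 0.05 in limma, 0 of the 2 differed.

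Receptor and STAT genes gave 0 calls among 9 tested in limma (1 higher at an unadjusted p under 0.05, against 3.03% of all tested genes), with a median of 0.06. Stat2, the partner of Irf9 in ISGF3, gave 182, 191 and 303 in the controls of pairs A, B and C, while the knockouts gave 317, 388 and 477. The groups did not overlap, yet the difference of 0.78 (SE 0.23) missed the threshold (limma adjusted p = 0.613, or 0.128 with the block). Of 13 genes that restrain or assist IRFs and interferon signalling, 12 were tested. In limma 1 rose and 0 fell, where 0.312% and 0.039% of all tested genes did. The one was Usp18, which holds back interferon receptor signalling, at 519, 772 and 660 in Trex1 WT and 5940, 7253 and 6786 in Trex1 KO (difference 3.34, limma adjusted p = 6.54e-06). The IRF2-binding corepressors Irf2bp1, Irf2bp2 and Irf2bpl, chosen after seeing their values, differed by -0.11, 0.20 and 0.00 (limma adjusted p of at least 0.954).

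The known targets of ISGF3 rose nearly without exception, and those of Irf1 and interferon gamma did not pass. Of 13 ISGF3-type targets tested, 12 rose and 0 fell in limma, where 0.312% and 0.039% of all tested genes did. The targets had a median difference of 1.86 (1.68 in pair A, 1.95 in pair B and 1.87 in pair C). These genes are typical interferon-stimulated genes, chosen with their rise in these hearts known, so the count is no independent evidence. Oas3, Ifit1 and Ifit3, an activator of RNA decay and 2 RNA-binding proteins, had the largest differences, at 2.78, 2.67 and 2.60 (limma adjusted p = 0.00109, 0.000354 and 4.75e-05). The exception was Bst2, which tethers virus particles to the cell surface, at 1.17 (limma adjusted p = 0.0629, and 0.0089 with the block). The count was 6 without the littermates of pair A, 7 without those of pair C, 5 when eBayes used no intensity trend and 3 once the Actb ratio entered as a covariate.

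Of 18 genes that Irf1 or interferon gamma are known to drive, 17 were tested and 0 passed in limma (7 higher and 0 lower at an unadjusted p under 0.05, against 3.03% and 2.26% of all tested genes), with 13 above 0, 4 below and a median of 0.37. By pair, the median was -0.09 in A, 0.15 in B and 0.76 in C. Gbp3, a guanylate-binding protein of host defence and the gene with the smallest p, gave 682, 1052 and 784 in the controls of pairs A, B and C, while the knockouts gave 1359, 2220 and 1661. Its difference of 1.04 missed the threshold (limma adjusted p = 0.116) but passed when blocked by littermates (limma adjusted p = 0.00175). The block also gave calls to the chemokines Cxcl9 and Cxcl10, named after their values were seen, so that 3 members passed. With the block, 0.389% of all tested probe sets were called higher. This is a share of probe sets, whereas the list counts genes by their brightest probe set. Whether the 2 target lists differ from each other was not tested.

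**Figure D4:**
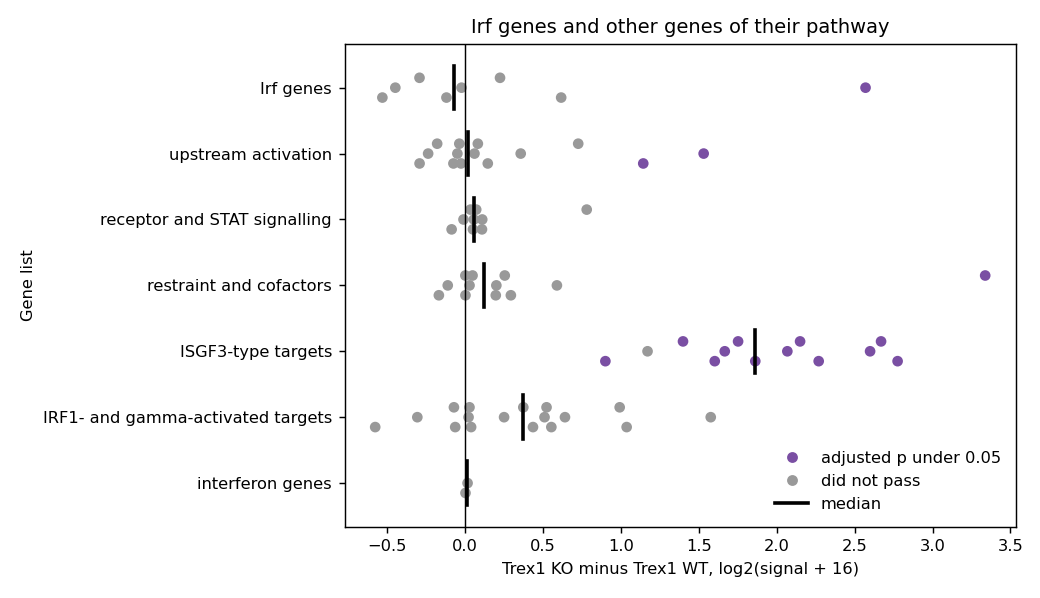
Differences (Trex1 KO minus Trex1 WT, log2(signal + 16)) of the tested genes in each list, 1 dot per gene by its brightest probe set, spread vertically for sight only. Purple dots passed limma at an adjusted p under 0.05, grey dots did not, and black bars are medians. The median is 1.86 for the ISGF3-type targets and lies between -0.07 and 0.37 for the other 6 rows.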

How the data were processed

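The values were the authors' deposited intensity per probe set, summarised with MAS5 per the submitters' processing notes, on a linear scale. Its version and settings are not given in these sources. With 2% trimmed at each end, every array averaged 500.0, and no further normalisation was done. Groups came from the sample titles and littermates from the design text. Littermates deviated together from their group means (r = 0.151, 0.192 and 0.147 across probe sets), and other combinations had r of 0.0101 or less.

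Log2(signal + 16) was tested with limma 3.58.1 in R 4.3.3 (lmFit, eBayes with an intensity trend, 4 residual degrees of freedom, 2 with the block), over probe sets whose mean reached the 40th percentile of those that were not controls (signal 53.8). Tests were two-sided. The fit was also run on simulated data with independent noise and no littermate effect, and no result here rests on that run. The p-values measure the spread between 3 animals a group, 1 array each, which limits all precision. Gene symbols came from the platform annotation through Entrez identifiers; the brightest probe set with 1 symbol stood for a gene.

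Named were all IRF probe sets, and in each list of pathway genes the members with the largest differences that passed (or the smallest p). The 5 genes most like a member that passed were named too. Among the markers, Fcgr1 and Ighm had the smallest p of their lists. Siglech and Cd3e were too dim to test and were named outside this rule. No gene was named by its p in the other marker lists. The members and lists were chosen with earlier results of these data known. The alternatives were pseudocounts of 1 and 64, no filter, quantile normalisation, eBayes without a trend, the replicate block, the Actb ratio as a covariate, and leaving out arrays or pairs.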

Additional observations from a re-analysis of the deposited data

How the results depend on the processing

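Irf7 kept its direction in all 16 alternatives (2.29 to 2.79) and its call in 15, the exception being the Actb ratio as a covariate, with which 0 IRF probe sets were called higher. Without an intensity trend in eBayes its limma adjusted p was 0.041. Irf1, Irf5, Irf9 and the brighter probe set of Irf8 kept their direction and did not pass wherever they were tested. The 2 probe sets of Irf4 did not pass either, and each kept its own sign where it was tested, opposite to that of the other. The dimmer, 1421174_at, was tested in 13 of the 16 alternatives. It was not tested without the knockout of pair B, without that of pair C or without both littermates of pair B. With the replicate block of littermate pairs, 105 probe sets were higher and 16 lower, against 59 and 7 without it, and 3 genes driven by Irf1 or interferon gamma were called. The block changed the call of no IRF probe set. Without the trend, 24 probe sets were higher and 4 lower, with 1 gene of upstream activation and 5 ISGF3-type targets. With the Actb covariate, 8 were higher and 1 lower, with 0 and 3 genes of those lists. Without single arrays, 33 to 85 were higher and 3 to 9 lower, and 0 to 1 genes driven by Irf1 or interferon gamma were called. Without pairs A and C in turn, 23 and 34 were higher and 0 and 4 lower, with 6 and 7 ISGF3-type targets and 1 gene of upstream activation each. Without pair B, 12 were lower.

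Signs turned for differences that did not pass. With the Actb covariate Irf2 was at 0.89 and the Irf3 probe set 1416898_a_at at -0.42. Without single arrays, Irf2 ran from -0.31 to 0.21, and Irf3 from -0.093 to 0.40 on 1416898_a_at, from -0.31 to 0.058 on 1426111_x_at and from -0.061 to 0.33 on 1435271_at. Without pair A, Irf2 was at 0.050, Irf3 on 1426111_x_at at 0.017 and Irf8 on 1448452_at at -0.028. Without pair B, Irf2 was at 0.22 and Irf3 on 1416898_a_at at -0.16, and without pair C Irf3 on 1435271_at was at -0.035. The cause was not tested. Signals near those of the bacterial controls limit Irf4 and the dimmest Irf3 probe set. The number of arrays limits the rest.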
